A study of Homo sapiens with 24 samples.

Results

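TXNIP, the thioredoxin interacting protein, and 4 of its relatives with an arrestin fold (ARRDC1, ARRDC2, ARRDC3 and ARRDC4) were followed in A549 cells together with MLXIP and MLX, which encode the MondoA and MLX regulators of TXNIP. The 7 genes were found by name among the 22026 genes of the deposited expression table, and each had a mean of at least 1 RPKM (reads per kilobase of transcript, scaled to library size), as 12029 genes of the table did. They were chosen by TXNIP's higher RPKM in the CAF medium libraries than in the controls, so the differences between media are a description of these 7 genes and carry no test. Changes with time, and changes of the medium difference with time, were not used to choose them and were tested.

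A549 is a human lung adenocarcinoma line. The cells were grown either as the control or in CAF medium, and polyadenylated RNA was sequenced from both at 3, 6, 12, 24, 48 and 72 h, which gives 6 control and 6 CAF medium libraries. The labels do not spell out CAF, an abbreviation commonly used for cancer-associated fibroblasts, and neither the composition nor the sugar content of either medium is given in the sources used here. The design text speaks of 2 biological replicates, yet the table holds 1 column per medium and time, so the times serve as the replicates and p-values measure the spread between these libraries.

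The proteins of the arrestin domain family, also called alpha-arrestins, are adaptors that carry short PY motifs. With these they recruit ubiquitin ligases of the NEDD4 family to receptors and transporters at the cell surface. TXNIP also binds reduced thioredoxin through a disulfide bond, and TXNIP and ARRDC4 both lower glucose uptake, in part by removing the transporter GLUT1 from the cell surface. MondoA and its partner MLX form a dimer that responds to glucose 6-phosphate and binds E-box-like elements in the TXNIP and ARRDC4 promoters.

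The promoters of the 2 genes with the largest changes are shown because such elements can be read in them. They are the 250 bases before the start, on the gene's strand, from RefSeq on GRCh38.p14; the expression values were made on hg19. Capitals mark the hexamer CACGNG on either strand and the forkhead motif TGTTTAC on either strand, where N is any base.
TXNIP (chr1:145996580-145996829, minus strand): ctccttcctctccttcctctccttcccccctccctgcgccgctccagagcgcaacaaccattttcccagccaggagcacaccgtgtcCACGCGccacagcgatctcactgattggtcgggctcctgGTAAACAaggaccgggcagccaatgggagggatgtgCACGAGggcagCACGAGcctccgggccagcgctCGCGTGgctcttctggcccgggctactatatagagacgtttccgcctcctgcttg
ARRDC4 (chr15:97960453-97960702, plus strand): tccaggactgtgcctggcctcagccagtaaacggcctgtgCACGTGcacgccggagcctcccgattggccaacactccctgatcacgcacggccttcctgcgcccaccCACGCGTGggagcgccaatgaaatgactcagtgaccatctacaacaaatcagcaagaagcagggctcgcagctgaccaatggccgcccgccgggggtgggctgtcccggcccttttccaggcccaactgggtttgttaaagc

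The TXNIP promoter held 2 CACGNG hexamers separated by 5 bases, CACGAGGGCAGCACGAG, beginning 88 bases before the start. This paired arrangement, searched as CACGNGNNNNNCACGNG on both strands, with both hexamers in the same orientation, was present in 20 of 35116 RefSeq promoters of 300 bases (0.0570%). None of the other 9 starts listed for the 7 genes held it. ARRDC4 had the palindromic E box CACGTG 210 bases before its start and an overlapping pair of hexamers, CACGCGTG, beginning 142 bases before it. CACGTG was present in 7.26% of all promoters and a single CACGNG, which includes CACGTG, in 30.5%, so these matches were much less selective than the pair. MLX itself held CACGTG 50 bases before its start, and the second listed ARRDC3 start held the forkhead motif 29 bases before it, a motif present in 3.42% of promoters and also in TXNIP, 124 bases before the start. The matches were as follows.
MLX: gcgggcgcgggtCACGTGggcacgccaccc
ARRDC3, second start: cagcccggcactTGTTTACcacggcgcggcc
A match describes the letters of the window, and no binding was measured here.

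TXNIP was close to silent in the early control libraries and far higher in CAF medium. In the control it stood at 0.08, 0.11, 0.32, 0.64, 6.81 and 21.67 RPKM at 3, 6, 12, 24, 48 and 72 h. In CAF medium it stood at 2.12, 2.94, 3.70, 11.75, 56.14 and 42.04 RPKM at the same times. The CAF medium library was higher at 6 of 6 times, a pattern shared by 8.97% of the genes tested, but the groups overlapped, since the 72 h control exceeded the CAF medium libraries of 3 to 24 h. TXNIP was also among the genes past the threshold in the fit of the medium difference, in which 10.2% of all genes tested passed, 6.06% upwards and 4.13% downwards. This is the contrast by which it was chosen, and nothing is read from it.

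On the log2(RPKM + 0.5) scale its difference was at least 1 at every time up to 48 h and 0.94 at 72 h. Differences of at least 1 upwards were found in 1.2% of the genes tested at 3 h, 2.32% at 6 h, 2.96% at 12 h, 3.38% at 24 h, 2.24% at 48 h and 0.15% at 72 h.

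The control values of TXNIP rest on few reads. The RPKM values correspond to 7, 8 and 28 TXNIP reads in the controls of 3, 6 and 12 h, against 197, 247 and 320 reads in CAF medium. The ratio of CAF medium to control was 25.6 at 3 h (95% interval 12.2 to 64.4), 27.9 at 6 h (13.9 to 65.3) and 11.5 at 12 h (7.83 to 17.6). It was 18.4 at 24 h (14.6 to 23.6), 8.25 at 48 h (7.65 to 8.90) and 1.94 at 72 h (1.85 to 2.03). These intervals are exact binomial ones for counting error alone and say nothing of variation between cultures. The ratio at 72 h was the smallest of the 6 because the control had reached 21.67 RPKM by then while the CAF medium library was below that of 48 h.

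**Figure D1:**
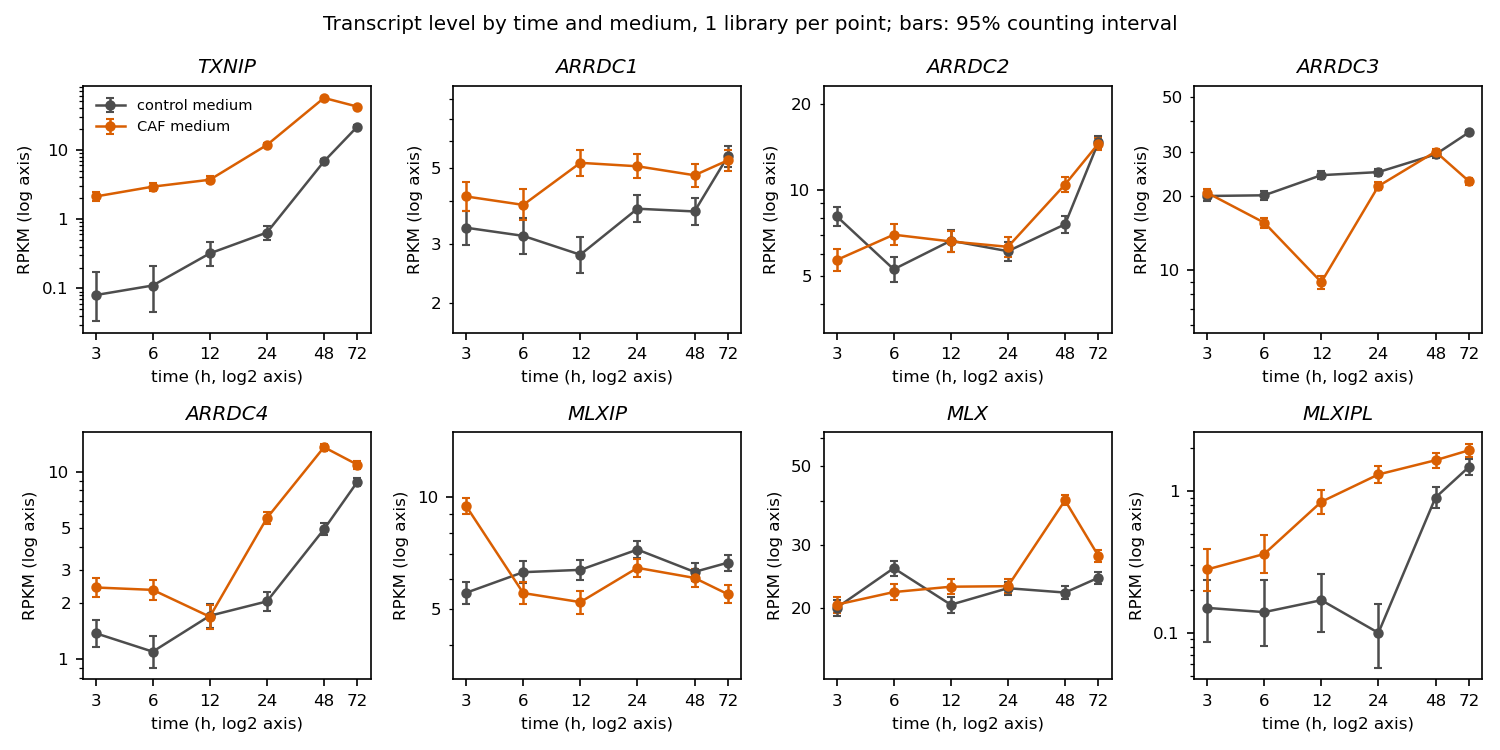
RPKM on a log axis against hours on a log axis for each of the 7 genes and for MLXIPL. The 6 control and 6 CAF medium libraries are separate lines, with vertical bars for the 95% Poisson counting interval. TXNIP climbs from 0.08 to 21.67 RPKM in the control and from 2.12 to 42.04 RPKM in CAF medium. Over the 12 libraries MLXIP lies between 5.21 and 9.44 RPKM and MLX between 20.08 and 40.11 RPKM.

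Ordered from lowest to highest, the TXNIP libraries ran control 3, 6, 12 and 24 h, CAF medium 3, 6 and 12 h, control 48 h, CAF medium 24 h, control 72 h, and CAF medium 72 and 48 h. Of the neighbours in that order, the controls of 3 and 6 h had overlapping counting intervals, as did the CAF medium libraries of 6 and 12 h. Every CAF medium library up to 12 h thus lay above every control up to 24 h.

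ARRDC4, the closest paralogue of TXNIP, differed in the same direction at 5 of 6 times and by less. Its control values were 1.38, 1.10, 1.71, 2.04, 4.95 and 8.87 RPKM, and its CAF medium values 2.42, 2.35, 1.69, 5.68, 13.57 and 10.94 RPKM. CAF medium was higher at 5 of 6 times, as it was for at least that many times in 24.0% of the genes tested, and the exception was 12 h. The ratio was 1.75 at 3 h (95% counting interval 1.43 to 2.15), 2.14 at 6 h (1.70 to 2.71) and 0.988 at 12 h (0.804 to 1.21). It was 2.79 at 24 h (2.44 to 3.19), 2.74 at 48 h (2.52 to 2.99) and 1.23 at 72 h (1.15 to 1.32). As for TXNIP, the highest library was CAF medium at 48 h, and the difference had narrowed at 72 h. ARRDC4 was the other member past the threshold of the medium fit, which 10.2% of all genes tested passed. The members were chosen with this contrast known, so nothing is read from that call either.

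ARRDC3, an adaptor known for integrin beta-4, was the most abundant alpha-arrestin in the controls and was higher in CAF medium at only 2 of 6 times. It stood at 19.95, 20.08, 24.21, 24.91, 29.35 and 36.03 RPKM in the control and at 20.56, 15.57, 8.96, 21.87, 30.12 and 22.89 RPKM in CAF medium. The low value at 12 h gave a ratio of 0.370 (95% counting interval 0.344 to 0.398), and a difference of at least 1 downwards on the log2(RPKM + 0.5) scale was seen at 12 h in 1.33% of the genes tested. The ratios at 6 and 72 h were 0.775 (0.726 to 0.827) and 0.635 (0.610 to 0.662), while those at 3 and 48 h were 1.03. Without the 12 h pair the mean difference on the log2(RPKM + 0.5) scale was -0.22, against -0.42 with it. The control climbed at every step and the CAF medium libraries had no such order.

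ARRDC1, which takes part in the budding of vesicles from the plasma membrane, was between 2.78 and 5.43 RPKM in the control and between 3.90 and 5.28 RPKM in CAF medium. Its ratio was above 1 at 5 of 6 times and was largest at 12 h, at 1.86 (95% counting interval 1.60 to 2.17). At 72 h it was 0.973 (0.878 to 1.08), an interval that includes equal levels. ARRDC2, a less studied member of the family, stood at 8.11, 5.29, 6.66, 6.12, 7.60 and 14.72 RPKM in the control and 5.70, 6.99, 6.62, 6.34, 10.47 and 14.55 RPKM in CAF medium. CAF medium was lower at 3 h, with a ratio of 0.703 (0.624 to 0.793), and higher at 6 h, at 1.32 (1.16 to 1.51), and at 48 h, at 1.38 (1.26 to 1.51). In both media its 72 h library was the highest.

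The largest difference of the regulators' transcripts was at 3 h for MLXIP and at 48 h for MLX, with smaller ones at other times. MLXIP stood at 5.52, 6.27, 6.36, 7.21, 6.28 and 6.65 RPKM in the control and 9.44, 5.51, 5.21, 6.44, 6.05 and 5.47 RPKM in CAF medium. CAF medium was higher only at 3 h, by a ratio of 1.71 (95% counting interval 1.57 to 1.86), and lower at the other 5 times. Those lower ratios ran from 0.819 (0.746 to 0.899) at 12 h to 0.963 (0.891 to 1.04) at 48 h. Of them only the 48 h interval included equal levels. MLX stood at 20.08, 25.92, 20.48, 22.78, 22.15 and 24.37 RPKM in the control and 20.49, 22.22, 23.00, 23.08, 40.11 and 28.05 RPKM in CAF medium. Its largest difference was at 48 h, with a ratio of 1.81 (1.72 to 1.91), the time at which TXNIP and ARRDC4 were highest. The MLX ratio was 0.857 (0.798 to 0.921) at 6 h, 1.12 (1.05 to 1.21) at 12 h and 1.15 (1.09 to 1.22) at 72 h. At 3 and 24 h its intervals included equal levels. MLXIPL, which encodes ChREBP, the paralogue of MondoA, is no member and was named after its values were seen. It was below 1 RPKM on average and untested, at 0.15, 0.14, 0.17, 0.10, 0.90 and 1.48 RPKM in the control and 0.28, 0.36, 0.84, 1.31, 1.65 and 1.94 RPKM in CAF medium.

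Averaged over the 6 times as differences of log2(RPKM + 0.5), CAF medium minus control, the genes fell in the order TXNIP, ARRDC4, ARRDC1, MLX, ARRDC2, MLXIP and ARRDC3. The mean difference was 2.39 ± 0.34 (SE over 6 times) for TXNIP, the highest of the 12029 genes on this scale, and 0.73 ± 0.22 for ARRDC4, the 198th highest. It was 0.33 ± 0.11 for ARRDC1, 0.17 ± 0.15 for MLX and 0.06 ± 0.13 for ARRDC2. It was -0.03 ± 0.15 for MLXIP and -0.42 ± 0.22 for ARRDC3. The median over all genes tested was 0.0024. The last 4 genes had differences within 2 SE of 0, and ARRDC3 was lower in CAF medium at 4 of 6 times.

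**Figure D2:**
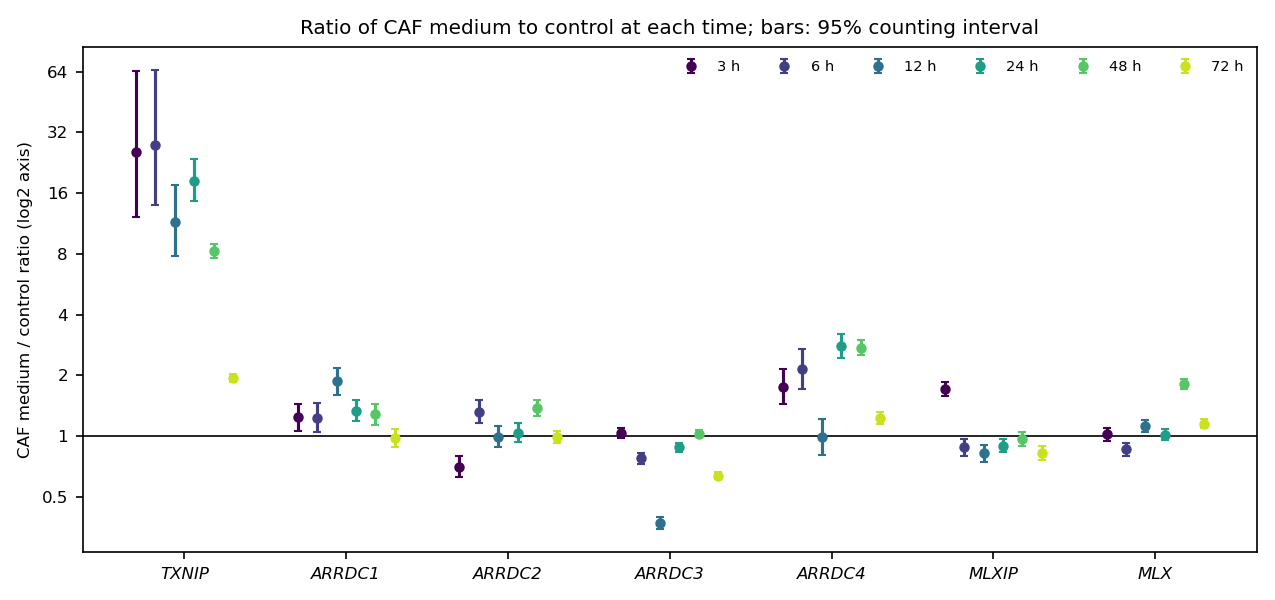
Ratio of CAF medium to control RPKM on a log axis at each of the 6 times for the 7 genes, with the 95% exact binomial counting interval and a line at equal levels. TXNIP runs from 25.6 at 3 h to 1.94 at 72 h, ARRDC3 dips to 0.370 at 12 h, and MLXIP is above 1 at 3 h only.

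The makeup of the alpha-arrestin transcripts changed with these values. Summed over TXNIP and the 4 ARRDC genes, the controls held 32.9, 29.7, 35.7, 37.5, 52.4 and 86.7 RPKM in order of time, and the CAF medium libraries 34.9, 31.8, 26.2, 50.7, 115.1 and 95.7 RPKM. TXNIP made up 0.244% of the sum in the 3 h control and 25.0% in the 72 h control. In CAF medium it made up 6.07% at 3 h, 23.2% at 24 h, 48.8% at 48 h and 43.9% at 72 h. The share of ARRDC3 moved from 60.7% to 41.6% between 3 and 72 h in the control and from 58.9% to 23.9% in CAF medium. The sums at 3 and 6 h were close in both media, so that at those times the media differed in makeup more than in total. RPKM is a level per transcript length, which allows this comparison between genes.

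**Figure D3:**
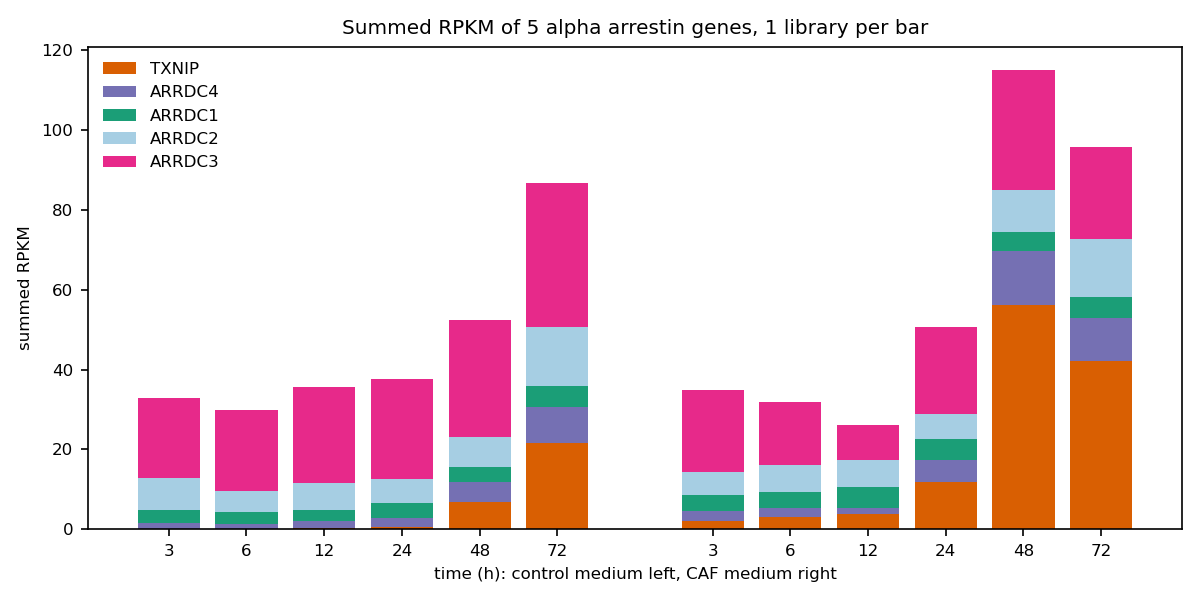
Stacked bars of RPKM for TXNIP, ARRDC1, ARRDC2, ARRDC3 and ARRDC4 in each of the 12 libraries, the controls and the CAF medium libraries each in order of time. ARRDC3 is the largest segment in all 6 controls, and TXNIP is the largest in CAF medium at 48 and 72 h.

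TXNIP and ARRDC4 rose with time, whatever the medium. The change with time was fitted with limma as a slope on log2 hours of the mean of both media, which gives 6 values, and 24.7% of all genes tested passed at a Benjamini-Hochberg adjusted p of 0.05 (15.1% rose and 9.62% fell). Of these calls 61.02% were rises, against 48.0% when the libraries were centred on their medians. Of the 7 genes 2 passed, a count not far from that background. What set TXNIP apart was the size. Its slope of 1.07 ± 0.13 log2 units per doubling of time (SE, limma adjusted p = 0.00207) was the steepest rise of the 12029 genes. ARRDC4 followed at 0.53 ± 0.08 (limma adjusted p = 0.00354), the 30th steepest, against a median slope of 0.019 over all genes.

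The rise was present in each medium. In the controls alone the slope was 1.11 for TXNIP (limma adjusted p = 0.0103) and 0.51 for ARRDC4 (adjusted p = 0.0114). In the CAF medium libraries alone it was 1.03 for TXNIP (limma adjusted p = 0.00150) and 0.56 for ARRDC4 (adjusted p = 0.0103). The added 0.5 RPKM exceeds the TXNIP controls of 3 to 12 h and flattens the TXNIP slope in the controls. From 3 to 72 h TXNIP went up 271-fold in the control, from 7 reads, and 19.8-fold in CAF medium, and ARRDC4 6.43-fold and 4.52-fold. Both calls held when any 1 time was left out, with slopes of 0.95 to 1.33 for TXNIP and 0.47 to 0.71 for ARRDC4. Depth moved with time, at 23900000 to 29260000 reads for 3 to 12 h and 33970000 to 40570000 for 24 to 72 h. Within 3 to 12 h TXNIP went from 0.08 to 0.32 RPKM in the control and from 2.12 to 3.70 RPKM in CAF medium. Within 24 to 72 h it went from 0.64 to 21.67 RPKM in the control, and in CAF medium from 11.75 to 56.14 RPKM at 48 h and 42.04 RPKM at 72 h. The part of depth in the slopes was not tested.

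The other 5 genes did not pass the test of time. The slope was 0.19 ± 0.06 for ARRDC2 (limma adjusted p = 0.0516) and 0.16 ± 0.06 for ARRDC3 (adjusted p = 0.0628). It was 0.10 ± 0.04 for ARRDC1 (limma adjusted p = 0.0903), 0.09 ± 0.04 for MLX (adjusted p = 0.123) and -0.02 ± 0.04 for MLXIP (adjusted p = 0.674). ARRDC2 and ARRDC3 lay near the threshold, and a slope on hours in place of log2 hours brought both past it, with limma adjusted p of 0.00126 and 0.0127. ARRDC3 passed in the controls alone, at a slope of 0.17 (limma adjusted p = 0.0167), and not in CAF medium alone, at 0.15 (adjusted p = 0.389). The difference between these slopes was not tested.

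**Figure D4:**
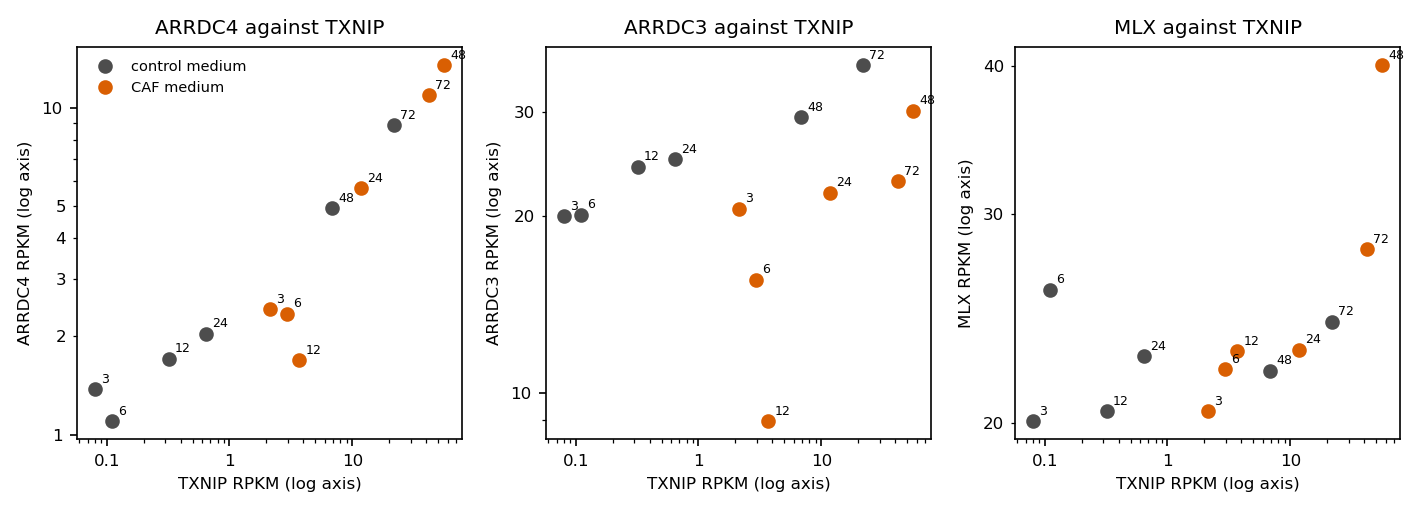
RPKM of ARRDC4, ARRDC3 and MLX against that of TXNIP on log axes, 1 point per library labelled with its hours, controls and CAF medium libraries in different colours. ARRDC4 follows TXNIP over all 12 libraries (Pearson r = 0.959), and ARRDC3 follows it in the controls and is scattered in CAF medium.

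Whether the medium difference itself changed between 3 to 12 h and 24 to 72 h was tested on the 6 differences with limma, and none of the 7 genes passed, where 0.416% of all genes did. At an unadjusted p of 0.05 1388 of the 12029 genes passed. For TXNIP the late minus early change was 0.10 ± 0.49 (SE, limma adjusted p = 0.958) on the log2(RPKM + 0.5) scale. Its sign depended on the pseudocount, at -0.89 with 0.1 RPKM (adjusted p = 0.603), since 0.5 RPKM exceeds the early control values and shrinks their differences. The geometric mean of the plain ratios was 20.2 for 3 to 12 h and 6.65 for 24 to 72 h. For ARRDC4 the change was 0.49 ± 0.31 (limma adjusted p = 0.590), and for the other 5 genes it lay between -0.25 and 0.36. With 3 differences on each side, standard errors of this size leave changes of the order of those seen undetected.

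Among all genes, the 6 whose log2 values over the 12 libraries were most like TXNIP by Pearson correlation were ATHL1 (r = 0.988), PRICKLE3 (0.985), MAP2 (0.985), FCHO1 (0.983), C7orf69 (0.982) and CTSB (0.982). MAP2 is a microtubule-associated protein, FCHO1 acts in clathrin-mediated endocytosis and CTSB is the lysosomal protease cathepsin B. By Spearman correlation 1 of these 6 remained among the top 6. ARRDC4 was the member most like TXNIP (r = 0.959, rho = 0.916, 134th of 12028 genes), with r of 0.994 over the 6 controls and 0.972 over the 6 CAF medium libraries. ARRDC1 came next (r = 0.829), then ARRDC2 (0.730), MLX (0.672), ARRDC3 (0.326) and MLXIP (-0.144). For ARRDC3, r was 0.961 over the controls and 0.671 over the CAF medium libraries. These coefficients describe 12 libraries that share the order of time and medium.

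Genes around TXNIP were counted from lists of its known partners, regulators and targets, and 15 of the 94 list genes tested passed the limma test of the medium difference, 13 upwards and 2 downwards. That is 16% of them, where 10.2% of all genes tested passed (6.06% upwards and 4.13% downwards), and each list below is to be read against these shares. The lists were chosen with earlier results of these data known, so a share above the background is a description only. These calls rest on small margins, with adjusted p between 0.0121 and 0.0428. Of these 15 genes none passed without the 6 h pair (adjusted p 0.0502 to 0.129), only BCL6 without 12 h, and only BCL6 and PER1 without 24 h. None passed without the time term (adjusted p 0.331 to 0.469) or without the filter on low values (0.0689 to 0.108). The directions below therefore hold for the fit over all 6 pairs.

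Of the glucose transporters, hexokinases and other enzymes of glucose 6-phosphate, 9 of 14 were tested. None rose and 1 fell in CAF medium, and the list median was 0.03. The gene that fell was SLC2A1, which encodes GLUT1, the transporter that TXNIP and ARRDC4 remove from the surface. It stood at 31.97, 36.19, 26.74, 28.44, 16.00 and 10.29 RPKM in the control and at 30.89, 18.92, 14.91, 15.58, 16.37 and 5.98 RPKM in CAF medium. CAF medium was lower at 5 of 6 times, by -0.56 ± 0.14 on the log2 scale (SE, limma adjusted p = 0.0358), though not at 48 h, when TXNIP was highest. SLC2A1 also fell with time, by -0.34 log2 units per doubling (limma adjusted p = 0.00580), so its 72 h libraries were the lowest where those of TXNIP were among the highest. With time 3 of the 9 rose and 3 fell, where 15.1% of all genes tested rose and 9.62% fell. Beside SLC2A1 these were SLC2A6, SLC2A12 and SLC2A13, which rose, and SLC2A8 and GPI, which fell, named after their values were seen. HK2, a hexokinase, was below the filter at 0.595 RPKM in the control and 0.452 in CAF medium.

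Of the genes known to respond to glucose through MondoA or ChREBP, 9 of 14 were tested, 1 rose and none fell in CAF medium, with a median of 0.09. FASN, the fatty acid synthase, rose from 13.1 ± 3.8 to 17.7 ± 5.0 RPKM (SD, 6 libraries each), by 0.42 ± 0.11 on the log2 scale (limma adjusted p = 0.0424), and was higher at 6 of 6 times. With time 4 of the 9 rose and none fell, where 15.1% of all genes tested rose and 9.62% fell. Those that rose were FASN, KLF10 and, named after their values were seen, SCD and ACACA. KLF10, a transcription factor that MondoA targets, had a medium difference of -0.28 ± 0.14 (limma adjusted p = 0.205), opposite in sign to TXNIP. In the network of MAX and MLX partners 8 of 12 listed genes were tested and none passed for the medium difference. MYC was at -0.03 (limma adjusted p = 0.880) and MXD4, a partner of MAX and MLX, at 0.14 (adjusted p = 0.575). With time 1 of the 8 rose and none fell, where 15.1% of all genes tested rose and 9.62% fell. This was MXI1, named after its values were seen (slope 0.17, limma adjusted p = 0.0309).

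In the thioredoxin system, the target of TXNIP's inhibition, 15 of 16 genes were tested, none rose and 1 fell, with a median of -0.07. SRXN1, the sulfiredoxin that repairs oxidised peroxiredoxins, was 37.1 ± 8.7 RPKM in the control and 25.6 ± 6.6 in CAF medium. It was lower at 6 of 6 times, as 7.81% of all genes tested were, by -0.53 ± 0.11 on the log2 scale (limma adjusted p = 0.0208). TXN, thioredoxin itself, averaged 313 RPKM in the control and 272 in CAF medium (log2 difference -0.20, limma adjusted p = 0.185). TXNRD1, its reductase, averaged 131 and 104 RPKM (log2 difference -0.35, limma adjusted p = 0.0961). Thioredoxin was thus far more abundant than TXNIP at transcript level in every library. Of the 7 listed genes of the NLRP3 inflammasome, to which TXNIP can bind, 4 were tested and none passed. NLRP3, PYCARD and IL1B, named after their values were seen, were below the filter and untested. NLRP3 itself averaged 0.033 RPKM in the control and 0.047 in CAF medium.

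Of the NEDD4 family ligases that alpha-arrestins recruit 9 of 9 were tested and none passed for medium or time, with a median of 0.05. With 10.2% of all genes passing for medium, a list of this length without a call for medium is near the background. For time 24.7% of all genes tested passed, and nothing is read from the lack of such calls among 9 genes. ITCH was at 0.28 (limma adjusted p = 0.0907), NEDD4 at -0.36 (adjusted p = 0.174) and NEDD4L at 0.07 (adjusted p = 0.729). Of the beta-arrestins and other arrestin-fold genes, 6 of 10 were tested and 1 rose. ARRB1, beta-arrestin 1, was 0.895 ± 0.620 RPKM in the control and 1.46 ± 0.55 in CAF medium, a difference of 0.55 ± 0.15 (limma adjusted p = 0.0428), which quantile normalization moved above the threshold, to 0.0655. ARRB2 was at 0.24 (limma adjusted p = 0.158). Of 6 known cargoes or partners of arrestin domain proteins SLC2A1 alone passed, downwards, which is the call already given among the glucose transporters.

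TXNIP is also a known target of FOXO factors and of the glucocorticoid receptor. The lists of both responses were chosen with earlier results of these data known, so their counts are descriptions. Of 15 tested genes of the FOXO response 7 rose in CAF medium and none fell, where 6.06% of all genes tested rose and 4.13% fell, with a median of 0.44 against 0.0024 over all genes, and 14 of 15 were positive. Those that rose were FOXO4, BCL6, KLHL24, FOXO1, CDKN1B and CITED2 and, named after its values were seen, RICTOR. BCL6, a transcriptional repressor, stood at 3.47, 3.21, 3.88, 4.64, 10.48 and 15.77 RPKM in the control and 6.57, 7.89, 5.57, 9.61, 28.02 and 21.92 RPKM in CAF medium. Like TXNIP it was higher at 6 of 6 times (0.88 ± 0.13, limma adjusted p = 0.0121) and highest in CAF medium at 48 h. FOXO4 went from 2.05 ± 1.61 to 3.86 ± 1.28 RPKM (0.94 ± 0.18, limma adjusted p = 0.0178), and FOXO1 from 2.05 ± 0.67 to 3.30 ± 1.05 (0.57 ± 0.11, adjusted p = 0.0190). CDKN1B, a cyclin-dependent kinase inhibitor, rose by 0.55 ± 0.14 (limma adjusted p = 0.0354). With time 8 of the 15 rose and none fell, where 15.1% of all genes tested rose and 9.62% fell.

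Of 14 tested glucocorticoid response genes 4 rose and none fell, where 6.06% of all genes tested rose and 4.13% fell. The median was 0.12, with 9 of the 14 positive and 5 negative. CDKN1C, a cyclin-dependent kinase inhibitor, went from 1.23 ± 1.38 to 3.09 ± 1.66 RPKM (1.24 ± 0.25, limma adjusted p = 0.0194). PER1, a clock gene, went from 3.98 ± 0.94 to 7.01 ± 2.26 RPKM (0.72 ± 0.13, limma adjusted p = 0.0158). TSC22D3, which encodes GILZ, rose by 0.72 ± 0.18 (limma adjusted p = 0.0349) and DUSP1, a phosphatase of MAP kinases, by 0.55 ± 0.13 (adjusted p = 0.0319). FKBP5, a classical target of the receptor, was at 0.18 (limma adjusted p = 0.558) and KLF9 at 0.50 (adjusted p = 0.0616). With time 4 of the 14 rose and 1 fell, where 15.1% of all genes tested rose and 9.62% fell. The gene that fell, named after its values were seen, was ANGPTL4 (slope -0.30, limma adjusted p = 0.0379). Its medium difference was -0.54 (limma adjusted p = 0.145). The lists hold several genes that respond to other signals too, so the counts describe the lists and not a pathway's activity.

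**Figure D5:**
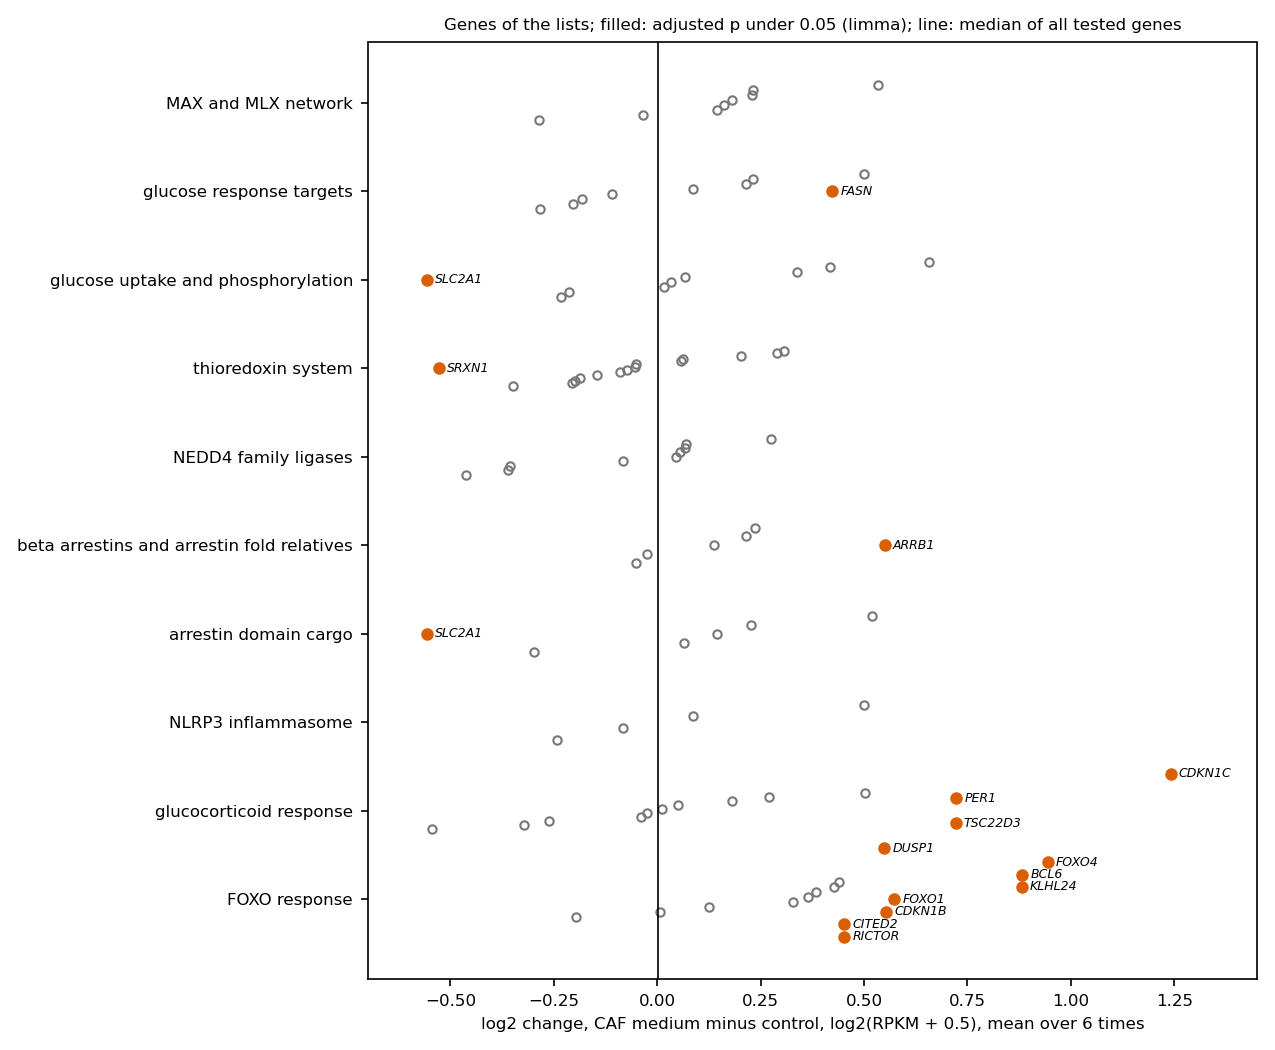
Mean log2 difference, CAF medium minus control, of each tested gene by list, with filled named points for genes past the limma test at an adjusted p of 0.05 and a line at the median of all tested genes. In the FOXO response list 14 of 15 points are positive and 7 are filled, while no gene of the NEDD4 ligase list is filled.

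Depth, estimated from the smallest steps in the RPKM of short gene models, was 23900000 to 40570000 reads per library. Of 8 lung epithelial markers the keratins KRT7, KRT8 and KRT18 were high in every library, with KRT7 at 1282 RPKM or more. Others were low, with EPCAM at 0.24 to 6.46 RPKM, KRT19 at 1.56 to 34.05 RPKM and MUC1 at 1.75 to 6.39 RPKM over the 12 libraries. The summed level of 10 fibroblast markers was 4.89 to 11.7 RPKM in the controls and 8.67 to 12.0 in CAF medium. COL1A1 stood at 1.37 to 4.27 RPKM in the controls and 2.6 to 5.81 in CAF medium. FAP stood at 2.11 to 4.09 and 1.67 to 4.71 RPKM. PDGFRA, LUM and THY1 reached at most 1, 1.43 and 2.22 RPKM. The other 5 of the 10, COL1A2, COL3A1 and PDGFRB among them, stayed below 1 RPKM throughout, and none was at 0 in every library. The part of these markers in the results was not tested. The summed level of 8 blood and vessel markers was 19.9 to 23.0 RPKM in the controls and 14.4 to 32.1 in CAF medium, mostly CD68. In bulk RNA, fewer cells with a transcript and less of it per cell cannot be told apart.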

How the data were processed

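Directional libraries of polyadenylated RNA were sequenced from both ends, per the labels' protocols. TopHat2, edgeR and hg19 are named in the submitters' processing notes. The rest (annotation, counting, joining of replicates) was not given in the sources used here. RPKM per gene, as deposited by the authors, were the values used. Read numbers were recovered as RPKM × length × depth, and every one of 58 to 94 low values checked per library was whole within 0.1 read. Values were analysed as log2(RPKM + 0.5) for the 12029 genes averaging 1 RPKM or more, with limma 3.58.1 in R 4.3.3 (variance trend over the mean level, two-sided tests, Benjamini-Hochberg adjustment at 0.05). The 3 fits were the medium difference with time as a factor, the slope on log2 hours, and late minus early differences. Pairing by time comes from the labels. Counting intervals are exact at 95% (scipy 1.17.1) and cover counting error only. The scripts were tested on simulated data. Alternatives covered the pseudocount, filter, scaling, trend, time scale and each time left out.

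The members and lists were chosen with earlier results of these data known. Named genes are the 7 members, the 6 most like TXNIP, up to 6 called genes per list, and 15 genes given whatever their values (TXN, TXNRD1, SLC2A1, HK2, MYC, MXD4, ITCH, NEDD4, NEDD4L, ARRB1, ARRB2, KLF10, FKBP5, TSC22D3 and KLF9); others are said to be chosen after their values were seen. The small RNA table was not used, and 1 further gene that was to be given whatever its values is not reported here.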

Additional observations from a re-analysis of the deposited data

Results flagged for a closer look

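In 21 groups of 6 values for the 7 genes (control, CAF medium and their differences), 4 had an end value far from the rest. The rule flags about 1 in 20 groups of independent values from 1 normal distribution. These groups are time courses and the differences reuse the same libraries, so that rate does not apply and no excess is read. TXNIP in the 72 h control, at 21.67 RPKM, stood apart from the next control at 6.81 RPKM. ARRDC2 in the 72 h control, at 14.72 RPKM, stood apart from the next at 8.11 RPKM. MLXIP in CAF medium at 3 h, at 9.44 RPKM, stood apart from the next at 6.44 RPKM, and its log2 difference at 3 h, 0.72, from the next at -0.05.

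MXD3, a repressor that pairs with MAX, had a medium difference that changed between the early and the late times. It stood at 3.35, 2.40, 3.36, 3.72, 3.4 and 3.04 RPKM in the control and 6.02, 5.04, 8.41, 3.06, 2.51 and 1.39 RPKM in CAF medium. CAF medium was higher at 3 to 12 h and lower at 24 to 72 h, a change of -1.48 ± 0.23 on the log2 scale (limma adjusted p = 0.0364). Over the alternatives the count of genes with such a change ranged from 0 to 242, and depth also differed between these periods.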

How the results depend on the processing

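The limits of these results come from 1 library per medium and time. TXNIP and ARRDC4 rose with time in all alternatives and leave-outs run. The medium difference called 1226 genes (729 up, 497 down), 0 without the filter on low values (4744 at an unadjusted p of 0.05), 0 with no replicate block, that is without the pairing by time (1691 unadjusted), and 34 to 1399 with a time left out (34 without 6 h, 35 without 12 h, 117 without 24 h, 729 without 48 h). The list genes called numbered 15, and 0, 0 and 0 to 21 in the same settings. The change with time called 2968 genes, of which 61.02% rose, 1394 in CAF medium alone, and 816 to 3460 with a time left out (1402 without 6 h, 1223 without 48 h, 816 without 72 h). The share that rose was 48.0% with median centring and 48.2% with quantile normalization. Late minus early called 50 genes, and 0 without the filter (1968 unadjusted), without the variance trend (1369) and with early as 3 to 6 h (1066), and 0 to 242 with a time left out (242 without 24 h). Of the 6 genes most like TXNIP, 1 was shared by Spearman correlation.

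No sign that turned belonged to a called value. The MLXIP slope was 0.044 in controls alone and -0.041 to 0.020 with a time left out, turning without 3 h. TXNIP's late minus early change was -0.893 with a pseudocount of 0.1 RPKM, -1.50 with 0.01 RPKM (chosen after seeing the data), and -0.396 to 0.847 with a time left out, turning without 24 or 48 h (-0.160). With early as 3 to 6 h that change was 0.094 for ARRDC1, -0.387 for ARRDC3 and -0.0026 for ARRDC4. With a time left out it was -0.025 to 0.397 for ARRDC2 and -0.430 to 0.064 for MLXIP, both turning without 3 h, and -0.106 to 0.608 for ARRDC3, turning without 12 h. The MYC medium difference was -0.111 to 0.084 with a time left out, turning without 3 h and 24 h (0.0077). The untested medium differences of ARRDC2 (-0.016 to 0.166) and MLXIP (-0.180 to 0.018) also turned, ARRDC2 without 6 or 48 h and MLXIP without 12 or 72 h. The causes were not tested.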

Other observations

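Beside TXNIP, 19 genes had a RefSeq promoter with the paired hexamers CACGNGNNNNNCACGNG, a group defined by sequence after the TXNIP promoter had been read. Of these 16 were in the expression table and 13 were tested. None rose and 1 fell in CAF medium, where 6.06% of all genes tested rose and 4.13% fell, and the median log2 difference was -0.01, against 0.0024 over all genes. The gene that fell was MTHFS, an enzyme of folate metabolism, from 8.01 to 5.80 RPKM (log2 difference -0.43 ± 0.11, limma adjusted p = 0.0347). With time 2 rose and none fell, near the 15.1% of all genes tested that rose. These were GFPT1, the first enzyme of the hexosamine pathway (11.1 RPKM in the control and 13.9 in CAF medium, slope 0.14, limma adjusted p = 0.0393), and RCN3, a calcium-binding protein of the secretory pathway (1.10 and 2.19 RPKM, slope 0.25, adjusted p = 0.0202). The matches in those promoters were as follows, with the hexamers in capitals.
GFPT1: CGCGTGagcggCGCGTG
RCN3: CCCGTGagacgCTCGTG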
